A study of Danio rerio with 16 samples.

Results

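The comparison set primordial germ cells (PGCs) against somatic cells of zebrafish embryos at 24 hours post fertilisation (hpf), when the body plan is laid down and PGCs have migrated towards the future gonad. Both cell types were sorted by FACS from pools of embryos of the kop-egfp-f-nanos3′UTR transgenic line, whose reporter marks PGCs and which, per the study's methods, also holds a cry-DsRed cassette, so PGCs and soma alike carry both and no wild-type embryos entered. Each side had 2 libraries of whole-genome bisulfite sequencing, 4 of the 16 libraries of the series; PGC and soma libraries of 4, 7 and 36 hpf, 2 each per stage, served to place the 24 hpf difference. Soma stands for all cells outside the PGC gate and mixes many cell types. Methylation was the only readout, so neither the PGC nor the soma label could be checked against expressed markers here. The members were all 714521 windows of 500 bp with at least 5 CpGs listed in both deposited tables and at least 30 calls in each of the 4 libraries of 24 hpf, out of 1802463 windows with any such CpG. They held 71.1% of the 10260021 shared nuclear CpGs, with a median of 9 CpGs per window.

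In vertebrates, methylation of the cytosine in CpG dinucleotides covers most of the genome, is added by DNA methyltransferases and is oxidised by TET enzymes on the way to its removal. CpG-dense promoters are usually kept free of it, while enhancers tend to lose it when tissues form. In mice, PGCs erase most of their methylation while they migrate and colonise the genital ridge. In zebrafish, PGCs are specified by maternally deposited germ plasm.

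Coverage differed between the sides. The mean number of calls per shared CpG was 7.99 and 12.05 in the PGC libraries (replicates 1 and 2), against 13.6 and 15.9 in the soma libraries. Incomplete bisulfite conversion was read from controls. The methylated share of calls on unmethylated lambda DNA was 0.368% in PGCs and 0.307% in soma in replicate 1, while replicate 2 had 105 and 69 lambda calls in its table, none of them methylated. On mitochondrial CpGs the level was 0.448% and 0.437% in PGCs, against 0.401% and 0.400% in soma. Mitochondrial levels were thus higher in PGCs in both replicates, and the part of this offset in the results was not tested.

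PGCs had slightly more methylation than soma at 24 hpf, by the same amount in both replicates. The mean level over windows was 86.8% and 86.7% in the PGC libraries, against 86.2% and 86.1% in the soma libraries. The cell types did not overlap, and PGC minus soma came to 0.645 percentage points in either replicate (86.8% ± 0.0658 in PGCs and 86.1% ± 0.0659 in soma, SD, n = 2 each). An exact two-sided permutation of the cell type over 4 libraries cannot give a p under 0.333, and gave 0.333.

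The other stages showed smaller or divided differences in the same windows. In replicate 1 and replicate 2 PGC minus soma amounted to 0.239 and 0.118 points for embryos of 4 hpf, 0.364 and 0.427 points for those of 7 hpf and -0.159 and 0.254 points for those of 36 hpf. Hence both values of 24 hpf lay above all 6 of the other stages. The mean at 24 hpf exceeded the mean of the other stages by 0.438 points, and an exact two-sided permutation of the stage over the 8 differences gave p = 0.0714, where the smallest p of the 28 relabellings is 0.0357. The 4 hpf replicates, which the study's methods call technical, count in that test as a pair of separate values, and without that stage the excess was 0.424 points with an exact permutation p of 0.133. The p was 0.0357 when per-CpG fractions were averaged in place of windows, with an excess of 0.490 points. Weighting windows by their calls lowered the 24 hpf difference to 0.292 points and the excess to 0.136 points (exact permutation p = 0.75). With that weighting replicate 1 gave 0.499 points and replicate 2 gave 0.0861 points at 24 hpf. The other stages then ranged from -1.07 points (4 hpf, replicate 2) to 1.68 points (7 hpf, replicate 1). The 24 hpf values thus no longer lay above all the others. Calls per CpG in windows of 20 or more CpGs, relative to all windows, were 1.16 and 1.13 in PGCs and 1.14 and 1.06 in soma at 24 hpf, so libraries gave CpG-dense windows unequal weight, and the part of this in the pooled value was not tested.

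The drop from 7 to 24 hpf was smaller in both PGC libraries than in both soma libraries. The mean window level was 89.0% in both PGC libraries at 7 hpf, against 88.6% in both soma libraries. From 7 to 24 hpf it changed by -2.18 and -2.27 points in PGCs, against -2.46 and -2.49 points in soma. From 24 to 36 hpf the order turned, with -1.86 and -2.01 points in PGCs, against -1.05 and -1.62 points in soma. The changes of the cell types did not overlap in either interval. For the first interval PGCs lost 0.25 points less than soma, with an exact permutation p of 0.333, the smallest this design allows. Weighting windows by their calls reversed that value, to -0.479 points (exact permutation p = 1). The smaller loss was found in the windows at 90% or more at 7 hpf, where PGC change minus soma change was 0.468 and 0.295 points (mean 0.381). It was -0.747 and -0.223 points (mean -0.485) in those at 80 to 90%. In those at 60 to 80% it was -1.68 and -0.105 points (mean -0.893), so mostly from replicate 1. The 7 hpf libraries in these changes also defined the classes.

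The difference was spread over the whole genome. PGC minus soma at 24 hpf was above 0 on all 25 chromosomes in both replicates, between 0.548 (chromosome 21) and 0.688 points (chromosome 9) in replicate 1 and between 0.583 (chromosome 16) and 0.702 points (chromosome 24) in replicate 2. Chromosomes share their libraries and are no replicates of each other. It was also above 0 in both replicates on all 25 chromosomes at 4 and at 7 hpf, with smaller values, while no chromosome had the same sign in both replicates at 36 hpf. Among 12869 bins of 100 kb with at least 20 windows, 68.4% were above 0 in both replicates at 24 hpf and 4.05% were below 0 in both. For bins above 0 in both, the share among embryos of 4, 7 and 36 hpf was 34.3%, 56.6% and 26.2%, in that order. The call minimum was set on the libraries of 24 hpf only, so these shares are not matched for depth. Replicate 1 of 4 hpf had 3.35 calls per shared CpG in PGCs and 2.40 in soma.

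**Figure D1:**
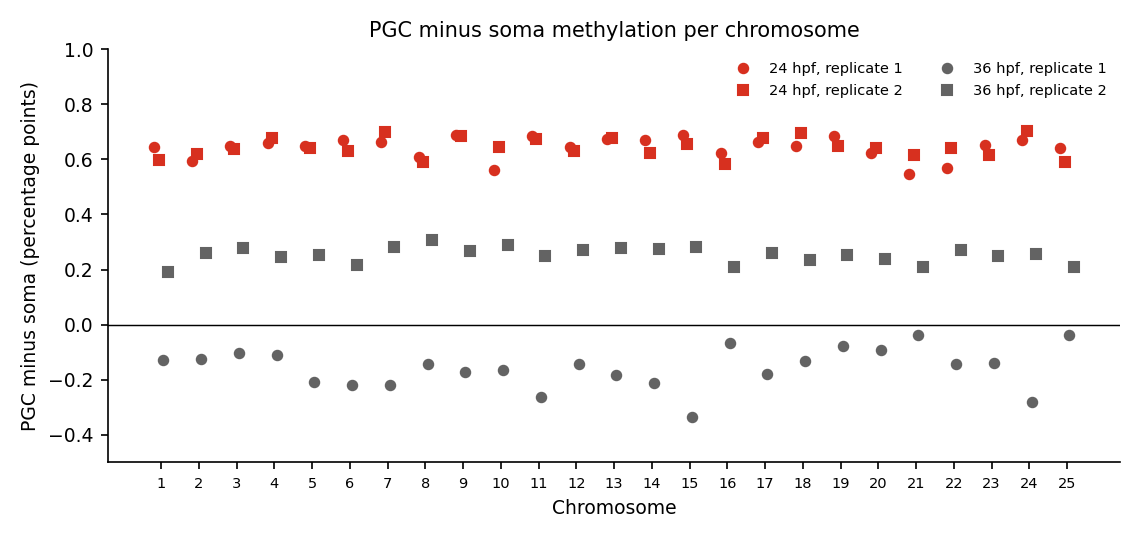
PGC minus soma mean window level (percentage points) on each of the 25 chromosomes at 24 hpf (red) and 36 hpf (grey), circles for replicate 1 and squares for replicate 2. At 24 hpf all points of both replicates lay between 0.548 and 0.702 points, while at 36 hpf those of replicate 1 lay below 0 and those of replicate 2 above it.

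Single windows repeated far less well than the genome-wide mean. Across the 714521 windows PGC minus soma of replicate 1 and of replicate 2 had an r of 0.0443 at 24 hpf, and of -0.00503, -0.00261 and -0.0113 at 4, 7 and 36 hpf. Windows are not independent replicates, and the libraries are shared by all of them. The stages were not matched for depth in these values of r. The tenth of windows with the largest difference in replicate 1 averaged 9.77 points there and read 1.14 points in replicate 2. The tenth with the lowest averaged -8.72 points in replicate 1 but read 0.50 points in replicate 2. PGCs were thus higher in replicate 2 even in the windows where they had been lowest in replicate 1.

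CpG density ordered the difference in 500 bp windows. Windows with 5 to 9 CpGs, 58.1% of all, had a level of 89.6% and 89.5% in PGCs, against 88.8% and 88.7% in soma, a difference of 0.765 and 0.764 points. The difference was 0.581 and 0.586 points at 10 to 14 CpGs, 0.38 and 0.385 points at 15 to 19, 0.234 and 0.219 points at 20 to 29, and 0.141 and 0.0938 points in the 9409 windows with 30 or more. Each class was lower than the class before it in both replicates. In the 963025 windows of 1 to 4 CpGs, read with no call minimum and given as a description, PGC minus soma was 1.01 and 0.963 points. The order by density was not particular to 24 hpf. At 7 hpf, too, each class from 5 to 9 CpGs upwards was lower than the class before it in both replicates. The 7 hpf difference was 0.379 and 0.494 points at 5 to 9 CpGs and 0.130 and 0.151 points at 30 or more. Against the other stages, the excess of 24 hpf was 0.529 points at 5 to 9 CpGs and 0.0287 points at 30 or more. The exact permutation p was 0.0357 for the class of 5 to 9 CpGs and 0.179 after Benjamini-Hochberg adjustment over the 5 classes, and no class passed 0.05 adjusted. Weighting by calls reversed the sign of the densest class to -0.424 points. In 1 kb windows, classed by CpGs per 500 bp, the order broke, with 0.157 points at 20 to 29 CpGs and 0.192 points at 30 or more. Density counts only CpGs listed in both tables, which held 10588676 (replicate 1) and 18123073 (replicate 2) nuclear CpGs. With CpGs counted in the table of replicate 2, the difference fell from 0.864 points at 5 to 9 CpGs to 0.131 points at 30 or more.

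**Figure D2:**
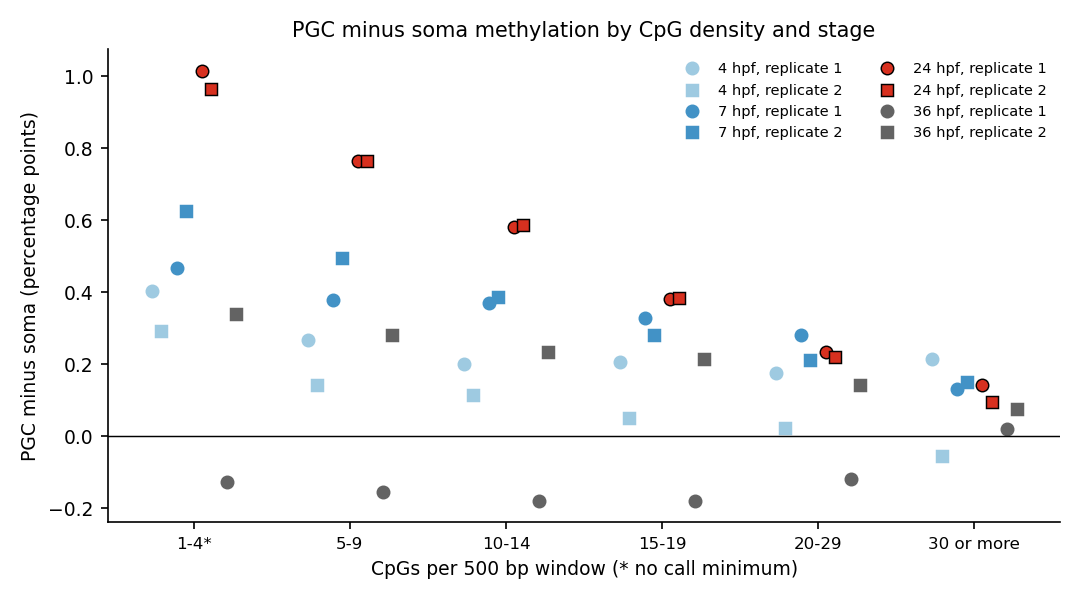
PGC minus soma mean level (percentage points) by the number of CpGs per 500 bp window, for the 4 stages (colours) and replicates 1 (circles) and 2 (squares). The 24 hpf points, in red with a black rim, run from 1.01 and 0.963 points in the sparsest windows to 0.141 and 0.0938 points in the densest, where they lie among those of the other stages.

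The starting level of a window went with the sign of its difference. Levels at 7 hpf, pooled over the 4 libraries of that stage, took no value from 24 hpf. The 608930 windows at 90% or more at 7 hpf had 93.9% and 93.8% in PGCs at 24 hpf, against 93.1% and 93.0% in soma. PGCs were therefore higher there by 0.786 and 0.771 points. In the 44191 windows at 80 to 90%, PGC minus soma was 0.0506 and 0.384 points. Below 80% the sign of the class mean turned. It was -0.283 and -0.179 points at 60 to 80%, -0.793 and -0.972 points at 40 to 60%, -1.12 and -1.52 points at 20 to 40%, and -1.09 and -1.66 points at 10 to 20%. In each of these 4 classes the libraries of the cell types overlapped, with PGC replicate 1 above soma replicate 2. At 20 to 40% the levels were 34.6% and 32.1% in PGCs, against 35.8% and 33.6% in soma. An exact permutation of the cell type gave p = 0.667 in each. Not every density shared the sign. In the 1832 windows of 10 to 14 CpGs at 60 to 80%, PGC minus soma was 0.309 and 0.140 points.

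Windows that were nearly free of methylation at 7 hpf also had less in PGCs. The 41898 windows under 10% at 7 hpf had 2.1% and 1.85% in PGCs, against 2.26% and 2.07% in soma, a difference of -0.155 and -0.22 points. Here too PGC replicate 1 lay above soma replicate 2. The exact permutation p against the other stages was 0.0357 for this class and for the class of 90% or more, and 0.125 for each after adjustment over the 7 classes. The difference in the 4 classes from 10 to 80% had opposite signs in the replicates of 7 hpf itself, for example 1.86 against -1.13 points (replicates 1 and 2) at 20 to 40%. Their replicate values at 24 hpf shared a sign, and the adjusted exact permutation p of these 4 classes ranged from 0.25 to 0.667.

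**Figure D3:**
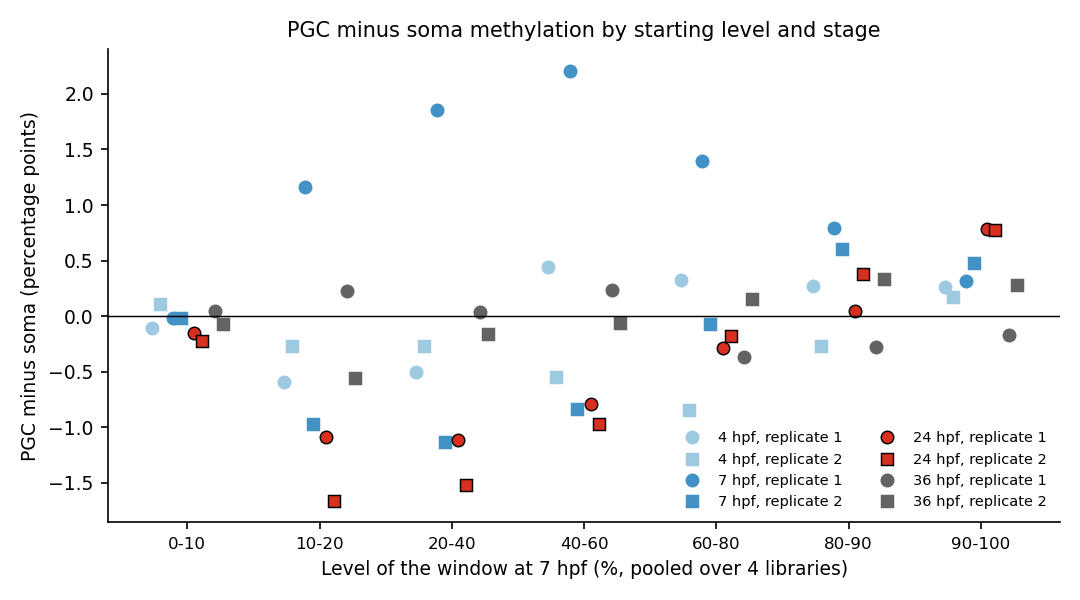
PGC minus soma mean level (percentage points) by the level of the window at 7 hpf, for the 4 stages (colours) and replicates 1 (circles) and 2 (squares). At 24 hpf both replicates lay below 0 in the 5 classes under 80% and above 0 in the 2 classes over it, with 0.786 and 0.771 points at 90 to 100%.

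Density and starting level were also read together. The 260215 windows with at least 10 CpGs and at least 80% at 7 hpf had 93.6% in both PGC libraries, against 93.0% in both soma libraries. Their difference was 0.599 and 0.623 points, 0.418 points above the other stages (exact permutation p = 0.0714). Among windows at 90% or more, PGC minus soma was 0.895 and 0.861 points at 5 to 9 CpGs and 0.259 and 0.291 points at 30 or more, so the order by density was present within that starting level. Among windows at 80 to 90% it was not shared by the replicates: PGC minus soma was 0.0388 and 0.421 points at 5 to 9 CpGs, against 0.302 and 0.0974 points at 20 to 29. The 1009 windows with at least 20 CpGs and 10 to 60% at 7 hpf, joined after seeing the data, had 39.3% and 34.5% in PGCs, against 40.6% and 37.7% in soma. They differed by -1.27 and -3.13 points.

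The widest differences were in windows whose level moved during these stages. Windows were grouped by their change in pooled level from 7 to 36 hpf, a grouping added after seeing the data that used no library of 24 hpf. In the 9245 windows that lost at least 30 points, 1.29% of all, the 24 hpf level was 70.0% and 66.9% in PGCs, against 64.1% and 61.1% in soma. The cell types did not overlap, and PGCs were higher by 5.88 and 5.87 points (replicates 1 and 2). In the same windows the embryos of 4 hpf gave 0.266 and 0.0467 points, those of 7 hpf 0.847 and 2.05 points and those of 36 hpf -5.62 and 2.12 points. PGCs were thus higher at 24 hpf in both replicates, and at 36 hpf in replicate 2 only.

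Smaller losses went with smaller differences. PGC minus soma was 2.4 and 2.64 points in windows that lost 20 to 30 points, 1.37 and 1.51 points at a loss of 10 to 20, 0.837 and 0.873 points at 5 to 10, and 0.546 and 0.533 points in the 457406 windows that lost up to 5 points. It was 0.104 and 0.129 points where up to 5 points were gained. In the 5403 windows that gained at least 10 points, the level was 47.2% and 41.8% in PGCs, against 50.2% and 45.6% in soma. PGC minus soma was -3.07 and -3.74 points. In that class the spread between replicates of a cell type was wider than the difference, and PGC replicate 1 lay above soma replicate 2.

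**Figure D4:**
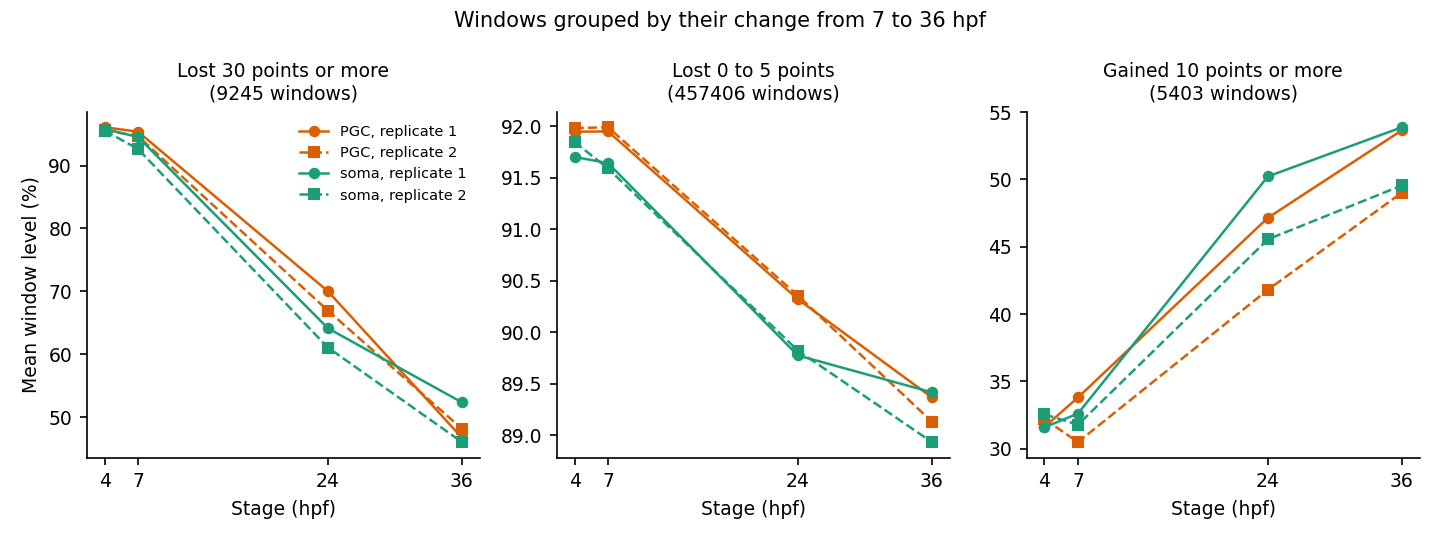
Mean window level (%) against stage in PGCs (orange) and soma (green), replicate 1 solid and replicate 2 dashed, for 3 of the 8 classes of change from 7 to 36 hpf; the vertical axes differ. At 24 hpf PGCs had 70.0% and 66.9% against 64.1% and 61.1% in soma in the class that lost most, and 47.2% and 41.8% against 50.2% and 45.6% in the class that gained.

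At 24 hpf PGCs had made a smaller part of the change than soma in every class. In the class that lost at least 30 points, 52.1% and 59.6% of the loss from 7 to 36 hpf had been made by 24 hpf in PGCs, against 72.1% and 67.7% in soma. In the class that gained at least 10 points the values were 67.2% and 61.1% in PGCs, against 82.8% and 77.5% in soma. The PGC share was below the soma share of the same replicate in all 8 classes, and both PGC shares lay below both soma shares in 7 of them. The classes share the 16 libraries, and the share of a cell type also depends on its own 36 hpf libraries.

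Against the other stages, the excess at 24 hpf was 5.92 points in the class with the largest loss and -3.21 points in the class with the largest gain. Each had an exact permutation p of 0.0357 and an adjusted p of 0.0571 over the 8 classes. The 7 and 36 hpf values in this test come from libraries that defined the classes. With the class taken from the libraries of the other replicate number, PGC minus soma was 5.59 points in windows that lost at least 30 points and -2.58 points in those that gained at least 10. The sign held on each of the 25 chromosomes in both replicates, from 4.63 to 6.99 points in the first class and from -5.3 to -1.31 points in the second. The 2 classes held 1.29% and 0.756% of windows. Those that lost at least 30 points supplied 11.8% of the mean difference over all windows, and those that gained at least 10 points -3.99%. The windows that lost up to 5 points, 64.0% of all, supplied 53.5%.

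A count of separated windows had the same asymmetry. Both PGC libraries lay above both soma libraries in 156223 windows, 21.9% of all, and below both in 78238 windows, 10.9%. With 4 exchangeable libraries and no ties, a share of 0.333 of windows would separate in one direction or the other. Separation of a window is thus no sign of a difference by itself, and only the balance of directions is described. Embryos of 4 hpf had 13.3% above and 12.3% below, those of 7 hpf had 18.1% above and 11.9% below, and those of 36 hpf had 15.7% above and 15.1% below. Depth differed between these stages and was not matched. It also differed between the sides. Calls per shared CpG were 7.99 and 12.05 in PGCs against 13.6 and 15.9 in soma at 24 hpf. At 7 hpf they were 8.07 and 16.7 in PGCs against 6.74 and 14.2 in soma. The part of this in the balance of directions was not tested. Groups were at least 10 points apart in 1283 windows with PGCs higher (0.18%) and in 606 with PGCs lower (0.0848%). Of the windows that lost at least 30 points by 36 hpf, 37.3% had PGCs higher without overlap and 4.8% had PGCs lower. The 1283 windows at least 10 points apart included 670 of this class. Of the windows that gained at least 10 points, 6.37% had PGCs higher without overlap and 27.0% had PGCs lower.

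No single window passed a test that compared the 4 libraries without pairing them. The quasi-likelihood test of edgeR, run on the counts of methylated and of unmethylated calls, called 0 windows higher (0%) and 0 lower (0%) at a Benjamini-Hochberg adjusted p of 0.05, and limma called 0. At an unadjusted p under 0.05 edgeR gave 20863 windows with PGCs higher (2.92%) and 6918 with PGCs lower (0.968%), which together is 3.89% of windows. The fit had 2 residual degrees of freedom and the adjustment ran over 714521 windows, so 0 calls do not show that no window differed. Without PGC replicate 1 edgeR called 4 windows higher and 7 lower, and without PGC replicate 2 it called 6 higher and 9 lower, with 1 residual degree of freedom. Without soma replicate 1 it called 0 higher and 1 lower.

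Fisher's exact test was also applied within each replicate, where it covers counting error only. Of the 714521 windows, 550 were higher and 388 lower in replicate 1 at an adjusted p under 0.01 and 20 points. In replicate 2 the counts were 549 higher and 388 lower. In the same direction in both replicates there were 34 windows with PGCs higher (0.00476%) and 18 with PGCs lower (0.00252%). By the same rule, embryos of 4 hpf had 13 windows higher and 29 lower, those of 7 hpf 10 higher and 8 lower, and those of 36 hpf 8 higher and 15 lower. These counts depend on depth, which differed between stages.

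The 34 higher and 18 lower windows differed from each other in their levels at other stages. Fisher's test gains power with calls, so the CpG number of a window is not independent of the rule. Windows at least 10 points apart, chosen without a test, had medians of 7 (PGCs higher) and 8 CpGs (PGCs lower). A gap of 20 points at 24 hpf between cell types alike at 7 hpf also requires a change after 7 hpf. The shares of all windows given here are thus no matched background. The higher windows had a median of 14 CpGs and a median level of 92.4% at 7 hpf, and 85.3% of them lost at least 20 points by 36 hpf, against 2.42% of all windows. Their mean level at 24 hpf, which chose them, was 74.1% and 68.6% in PGCs, against 43.0% and 41.7% in soma. By 36 hpf they averaged 39.3% and 37.0% in PGCs, against 45.6% and 41.0% in soma, so PGC levels there were below soma levels in both replicates. The 1283 windows at least 10 points apart with PGCs higher did not share this, with -3.87 and 1.17 points at 36 hpf (replicates 1 and 2). The lower windows had a median of 20 CpGs and a median level of 26.1% at 7 hpf, and 66.7% of them gained at least 10 points by 36 hpf, against 0.756% of all windows. Their 24 hpf levels were 29.6% and 40.4% in PGCs, against 64.8% and 67.1% in soma. At 36 hpf they read 57.3% and 57.6% in PGCs, against 58.2% and 58.5% in soma.

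Windows chosen in one replicate were measured in the other, which took no part in the choice. The 550 windows with PGCs higher in replicate 1 averaged 30.6 points there and 4.59 points in replicate 2, with 58.7% in PGCs and 54.1% in soma, and 65.8% kept the direction. The 549 chosen in replicate 2 averaged 4.48 points in replicate 1, and 63.4% kept the direction. The 388 windows with PGCs lower in replicate 1 averaged -1.2 points in replicate 2, and 53.9% kept the direction. The 388 chosen in replicate 2 averaged -1.68 points in replicate 1, and 52.6% kept it. These shares are not to be read against an even split, since more of all windows had PGCs higher than lower in each replicate. Ranked from the lowest difference, the tenth of windows numbered 5 already averaged 0.168 and 0.158 points (replicates 1 and 2). The exact share over all windows was not counted. Around the windows with PGCs higher, the reading was 2.54 and 1.85 points in the adjacent windows before and after in replicate 2, and 2.02 and 3.38 points in replicate 1. Over distances of 1.5 to 5 kb it ranged from 0.115 to 1.79 points in replicate 2 and from 0.233 to 1.58 points in replicate 1. Around the windows with PGCs lower, the adjacent windows read -1.52 and -0.384 points in replicate 2 and -0.94 and -1.99 points in replicate 1, and those at 1.5 to 5 kb read -0.455 to 1.90 points in replicate 2 and -1.01 to 2.003 points in replicate 1.

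The windows with the widest gap between the groups are given by position in danRer10, counted from 1. They were ranked by their 24 hpf values, which are therefore a description; they lie on the 25 chromosomes, have at least 8 CpGs and 60 calls in each library, and are at least 2 kb apart. The gene content of these windows was not analysed here. The widest gap with PGCs higher was on chromosome 20, positions 30246001 to 30246500, with 10 CpGs. Its level was 54.7% and 55.0% in PGCs, against 21.5% and 11.9% in soma. At 7 hpf it had been 97.4% and 82.0% in PGCs and 91.8% and 84.7% in soma, and at 36 hpf it was 11.7% and 22.6% in PGCs and 24.4% and 12.2% in soma. The groups thus overlapped at 7 and 36 hpf and were 33.1 points apart between them.

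The next windows also had PGCs higher at 24 hpf and no gap between the groups at 36 hpf. On chromosome 6, positions 14313001 to 14313500 (16 CpGs), the level at 24 hpf was 86.3% and 81.8% in PGCs, against 49.1% and 47.6% in soma, and at 36 hpf 34.2% and 42.1% in PGCs, against 53.1% and 32.4% in soma. On chromosome 22, positions 33218001 to 33218500 (16 CpGs), it was 68.1% and 65.5% in PGCs, against 34.9% and 35.4% in soma, and at 36 hpf 41.1% and 45.9% in PGCs, against 42.9% and 38.0% in soma. On chromosome 4, positions 3100501 to 3101000 (9 CpGs), it was 72.2% and 61.0% in PGCs, against 35.2% and 32.7% in soma. All of these windows were over 80% in every library of 7 hpf. Other windows of this list of 10 ran differently. The one on chromosome 14 (4864501 to 4865000) still had 34.6% and 37.8% in PGCs against 27.7% and 27.3% in soma at 36 hpf, and the one on chromosome 18 (38599501 to 38600000) had 21.9% and 22.8% in PGCs against 32.0% and 25.95% in soma, a gap in the opposite direction. The one on chromosome 17 (30357501 to 30358000) had no overlap before, with 100% and 95.8% in PGCs against 95.3% and 95.4% in soma at 7 hpf. Those on chromosome 2 (29245501 to 29246000) and chromosome 8 (44941001 to 44941500) were not over 80% in every library of 7 hpf: on chromosome 8 the level was 83.9% and 72.7% in PGCs, against 49.2% and 48.7% in soma, after 47.7% and 46.8% in PGCs and 64.5% and 50.0% in soma at 7 hpf.

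In the opposite direction the widest gap was on chromosome 1, positions 14828501 to 14829000, with 20 CpGs. Its level was 38.5% and 36.3% in PGCs, against 74.3% and 71.0% in soma. By 36 hpf the window read 42.0% and 43.7% in PGCs, against 71.6% and 60% in soma, so the groups were apart at both stages. On chromosome 9, positions 38632001 to 38632500 (26 CpGs), the level at 24 hpf was 30.3% and 32.5% in PGCs, against 61.5% and 72.1% in soma. At 36 hpf this window read 65.3% and 40% in PGCs, against 57.0% and 55.5% in soma, and the groups overlapped. On chromosome 18, positions 14578501 to 14579000 (9 CpGs), it was 12% and 15.2% in PGCs, against 50.4% and 42.2% in soma, and 48.2% and 47.5% in PGCs against 40.4% and 50.0% in soma at 36 hpf.

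The other PGC-lower windows of the list included 3 that were over 70% in all libraries of 7 hpf. On chromosome 7, positions 7992001 to 7992500 (15 CpGs), the level at 24 hpf was 31.7% and 63.0% in PGCs, against 92.5% and 89.9% in soma, after 79.2% and 85.3% in PGCs and 75.3% and 76.3% in soma at 7 hpf. On chromosome 16, positions 48481501 to 48482000 (23 CpGs), it was 37.1% and 57.6% in PGCs, against 82.5% and 81.8% in soma, after 86.6% and 82.8% in PGCs and 73.7% and 87.8% in soma. On chromosome 11, positions 36671001 to 36671500 (15 CpGs), it was 61.0% and 52.2% in PGCs, against 82.5% and 84.3% in soma, after 98% and 71.2% in PGCs and 93.8% and 76.9% in soma. In these windows each PGC library of 24 hpf was below both PGC libraries of 7 hpf, with the widest spread between PGC replicates on chromosome 7. At 36 hpf the window on chromosome 7 read 62.5% and 82.4% in PGCs, against 78.9% and 79.9% in soma. The one on chromosome 16 read 78.0% and 78.5% in PGCs, against 89.8% and 88.8% in soma. The one on chromosome 11 read 79.2% and 82.5% in PGCs, against 48.3% and 88.2% in soma. The low PGC levels of 24 hpf, which ranked these windows, were thus mostly not kept at 36 hpf.

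A pair of CpG-dense windows started low in all libraries of 7 hpf. On chromosome 9, positions 46748501 to 46749000 (25 CpGs), the level at 7 hpf was 11.5% and 6.2% in PGCs, against 0.51% and 6.54% in soma. By 24 hpf the window read 36.5% and 41.6% in PGCs, against 62.9% and 65.7% in soma, and at 36 hpf 66.0% and 68.3% in PGCs, against 62.6% and 65.8% in soma. On chromosome 3, positions 28377501 to 28378000 (20 CpGs), it was 2.11% and 5.79% in PGCs, against 9.09% and 0.447% in soma, at 7 hpf. At 24 hpf this window read 22.9% and 35.1% in PGCs, against 56.04% and 57.0% in soma. Both windows had gained methylation in PGCs and soma by 24 hpf, with the lower values in PGCs.

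**Figure D5:**
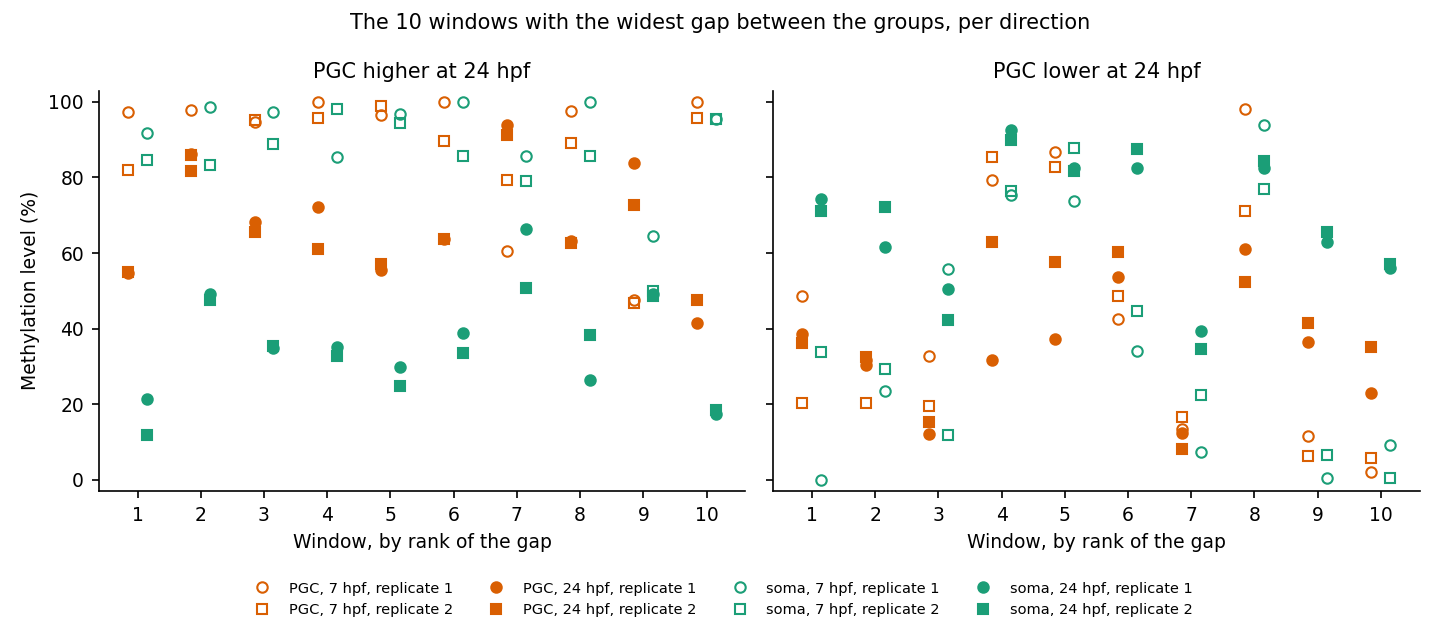
Methylation level (%) of the 10 windows with the widest gap per direction, at 7 hpf (open symbols) and 24 hpf (filled symbols), in PGCs (orange, left) and soma (green, right), circles for replicate 1 and squares for replicate 2. With PGCs higher, 8 of 10 windows started over 80% in all 4 libraries of 7 hpf; with PGCs lower, 7 of 10 were under 60% in all 4 libraries of 7 hpf.

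The adjusted p of edgeR's quasi-likelihood test was 1 for the 20 ranked windows, with unadjusted values from 1.08e-05 to 0.00418 in the 10 with PGCs higher and from 1.97e-05 to 0.00227 in the 10 with PGCs lower. These values belong to windows picked for their separation in the same libraries. Of the 345953 windows that could enter the rank list, 76206 had PGCs higher without overlap and 37866 had PGCs lower. Over all 714521 windows these counts were 156223 (21.9%) and 78238 (10.9%), so the entry rule was not read as a result.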

How the data were processed

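DNA methylation was measured in sorted PGCs and soma at 4, 7, 24 and 36 hpf, 2 libraries per group. Per the study's methods and processing notes, the authors trimmed reads with fastp 0.12.5, mapped them with WALT to danRer10 plus lambda, removed duplicates with Picard 2.3.0 and called CpGs with MethylDackel, merging strands. The deposited values are raw counts of methylated and of all calls per CpG, in 1 table per replicate number. Groups came from the labels. The study's methods call the replicates of 7, 24 and 36 hpf biological and those of 4 hpf technical.

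Only nuclear CpGs in both tables entered. A window's level is its methylated over all calls, and each window counted equally. Calls behind the 4 libraries of 24 hpf numbered 81981565 to 163639892. Reads are not independent molecules, and Fisher's test on calls within a replicate covers counting error only. The edgeR test on calls also takes in spread between libraries, through its dispersion.

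Global and class differences were tested by exact permutation, windows with edgeR 4.0.16 (R 4.3.3; common dispersion from evenly spaced windows, library terms) and with limma 3.58.1 (0.5 added to each count), and within replicates with Fisher's exact test (scipy 1.17.1, numba 0.67.0). The study used DSS, which was not run. The edgeR test was checked on simulated data, and Fisher's test on random tables against the version in scipy. Alternatives covered weighting, CpG sets, window size, call minimums, thresholds, pairing and left-out libraries. Classes, window lists and the naming rule (widest gap per direction, first 10) were chosen with earlier results of these data known. Genes, promoters and sequences of the windows were not analysed here, since no danRer10 annotation was used. Analyses ran in Python 3.11.15 with numpy 2.4.6, pandas 2.3.3 and matplotlib 3.10.9.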

Additional observations from a re-analysis of the deposited data

How the results depend on the processing

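Of 381 alternative values, 349 kept their direction and side of the threshold and also stayed within 1.5 times (counts) or within the replicate spread (windows chosen in one replicate). For many of them the side was fixed in advance. The permutation of the cell type cannot give a p under 0.333 and the sign flip none under 0.5. Differences with a replicate left out have no p and took the side of the main setting by rule. For these values only the direction could change. For the excess of 24 hpf over the other stages, averaging per-CpG fractions over shared CpGs gave 0.490 points, over CpGs with at least 5 calls 0.519 points and over all nuclear CpGs of a table it gave 0.481 points, each with an exact permutation p of 0.0357. Weighting by calls reversed the smaller loss of PGCs from 7 to 24 hpf (-0.479 points), and in windows of 30 or more CpGs the 24 hpf difference (-0.424) and its excess (-0.840). The excess at 80 to 90% at 7 hpf reversed to 0.0158 (weighting by calls), 0.0210 (1 kb windows), 0.0937 (class from the other replicate) and 0.107 points (60 calls). Without a replicate it ranged from -0.214 to 0.160 points there and from -0.735 to 0.0764 points at 60 to 80%. The cause was not tested.

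Same-numbered deviations correlated at 0.0101, 0.260, 0.245 and 0.198 at 4, 7, 24 and 36 hpf, but there are only 2 numbers and the labels do not say what they share. With the replicate block edgeR called 14 windows higher and 11 lower, while the paired test of the 24 hpf level kept 0.645 points with an exact sign-flip p of 0.5, the smallest it allows. Leaving out 1 library gave 0 to 6 higher and 0 to 9 lower. Windows past Fisher's test in both replicates numbered 106 higher and 66 lower at an adjusted p of 0.05 and 10 points, and 7 and 3 at 30 points; a single replicate gave 549 to 550 higher and 388 lower. Windows chosen in one replicate read 3.34 points in the other when chosen at 10 points, 4.32 when chosen at 30 and 4.02 at 1 kb, and -2.12 at 30 points and -2.16 at 1 kb for those lower in PGCs. The smallest exact permutation p for the level itself was 0.333.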
